A study of Homo sapiens with 4 samples.

Results

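The promoters examined here are those of MORC2, the gene disrupted in the knockout (KO) cells, of its antisense transcript MORC2-AS1, of the adjacent gene TUG1, and of the next genes on chromosome 22q12.2, namely OSBP2, SMTN, SELENOM, INPP5J and PLA2G3. They form 8 of the 28775 rows of the promoter table, 1 row per NCBI Gene ID, and all 8 passed the filter on low counts. The assay was ATAC-seq, which reads open chromatin from the places where Tn5 transposase inserts sequencing adapters, in HEK293T cells, an established human embryonic kidney line. There were 2 wild-type (WT) libraries and 2 MORC2 KO libraries, the latter from bulk pools edited with Cas9 and a different guide RNA each, so that guide and KO replicate cannot be told apart. Libraries are called KO 1, KO 2, WT 1 and WT 2 by their replicate number. Pools are not clones and may keep unedited cells, and promoter accessibility does not measure the edit.

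MORC2 and TUG1 were chosen by their KO against WT difference in promoter counts, which was known, and the others for their place beside them. The KO against WT values of all 8 rows are therefore given as a description, with no p-value, and the question is how far along the locus the difference extends.

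MORC2 is a GHKL-type ATPase that compacts DNA and acts with the HUSH complex, which silences retroelements and other transcripts in chromatin marked by H3K9 trimethylation. TUG1 is a widely expressed long noncoding RNA gene, although the gene table used here lists it as protein coding. It is read in the direction opposite to MORC2 from a start close by, and such head-to-head pairs commonly share a single nucleosome-depleted region. In ATAC-seq such a region appears as a cluster of Tn5 insertions that cannot be assigned to either gene. MORC2-AS1 overlaps the far end of MORC2 and is thus away from this shared start.

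The RefSeq promoter sequences of MORC2 and TUG1 are shown because their rows had the largest log2 fold changes of the 8 in the main fit. RefSeq windows on GRCh38.p14, which run from 250 bases before to 50 bases after a start, were found for 4 of the 8 genes. These are OSBP2 (several starts), MORC2, TUG1 and SMTN (several starts). The MORC2 window is chr22:30968725-30969024 on the minus strand and the TUG1 window is chr22:30969015-30969314 on the plus strand. Each is written 5′ to 3′ on the strand of its gene, and capitals mark matches on either strand to the GC box (the letters GGGCGG), to the pentamer read by NF-Y (CCAAT) and to the E-box (CACGTG).
MORC2: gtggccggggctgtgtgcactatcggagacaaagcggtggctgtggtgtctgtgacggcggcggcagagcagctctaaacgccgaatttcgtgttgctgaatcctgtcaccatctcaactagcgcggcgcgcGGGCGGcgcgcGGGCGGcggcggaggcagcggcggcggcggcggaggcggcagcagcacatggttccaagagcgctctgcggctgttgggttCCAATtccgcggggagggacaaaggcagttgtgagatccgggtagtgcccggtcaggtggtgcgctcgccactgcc
TUG1: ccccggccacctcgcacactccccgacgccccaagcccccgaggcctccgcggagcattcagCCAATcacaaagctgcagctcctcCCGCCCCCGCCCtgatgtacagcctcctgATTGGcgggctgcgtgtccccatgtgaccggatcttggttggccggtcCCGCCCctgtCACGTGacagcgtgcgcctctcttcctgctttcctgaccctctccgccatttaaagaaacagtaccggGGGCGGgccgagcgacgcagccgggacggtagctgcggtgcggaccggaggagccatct

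The pair of windows shared 10 bases, and the starts lay 491 bp apart on GRCh38.p14. In the study's methods a promoter spans 2 kb around the start of transcription. Windows of that width centred on these starts would have 1509 bp, or 75.5% of their length, in common. Both sequences were 67.7% G or C, and held 35 (MORC2) and 28 (TUG1) CG dinucleotides, against a median of 14 over 35116 RefSeq windows. The GC box matched at 2 places in MORC2 and 4 in TUG1, and 45.0% of all windows held it. The NF-Y pentamer matched at 1 place in MORC2 and 2 in TUG1 (34.6% of all windows), and the E-box at 1 place in TUG1 (7.26%). The core motif of ETS factors, CCGGAA, was in neither window, and 17.2% of all windows held it. The TATA box, searched for as TATAAA, was also in neither window, against 11.5% of all windows. The same was true of the core motif of YY1, here AAGATGG, which was in 5.84% of all windows. These matches describe the reference letters only.

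The promoter table summed to between 9435801 and 15152636 fragments in each library. The 37 rows of the mitochondrial genome took 20.6% of the count in KO 2, the deepest library, and 31.8% to 35.1% in the others. The promoters of VIM (73.0 to 85.8 CPM), LHX1 (17.9 to 20.4) and NEFM (11.8 to 13.6), listed for the kidney and neural character of the line, were more open than those of ALB (1.66 to 2.44), HBB (1.19 to 2.44) and CD3E (2.18 to 2.87), which mark other cell types. PAX2, also listed for the line, was at 5.86 to 7.89 CPM, below MYOD1, of muscle, which was at 15.8 CPM or more. The promoters therefore set the line apart from some of these cell types and not from all. CPM here are counts scaled to library size with TMM factors, and levels are per window, with no correction for length since the windows are stated to be of 1 width.

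At the MORC2 promoter (Gene ID 22880) there were 403 fragments in KO 1, 639 in KO 2, 247 in WT 1 and 267 in WT 2. After scaling, its level was 37.0 CPM in KO 1 and 37.5 in KO 2, and 25.7 in WT 1 and 29.6 in WT 2. The groups did not overlap, and the KO libraries were closer to each other than the WT libraries were. The mean level in KO was 37.2 ± 0.359 CPM, and in WT it was 27.6 ± 2.77 CPM (SD over 2 libraries). The edgeR log2 fold change, KO minus WT, was 0.43 (SE 0.087), or 1.35-fold. Set against the WT mean, the KO libraries gave nearly the same difference, 0.42 for KO 1 and 0.44 for KO 2 on the log2 CPM scale. The guide sequences printed in the paper overlap almost in full, so these libraries do not stand for separate target sites.

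The TUG1 row (Gene ID 55000) held 394 fragments in KO 1, 628 in KO 2, 244 in WT 1 and 263 in WT 2. Its counts were between 97.8% and 98.8% of those of MORC2 in every library. No more than 11 fragments separated the rows in any library, so that MORC2 and TUG1 are treated here as a single measurement of the shared start region, entered under 2 names. The TUG1 levels were 36.1 and 36.8 CPM in KO and 25.3 and 29.1 CPM in WT, with a log2 fold change of 0.43 (SE 0.088).

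**Figure D1:**
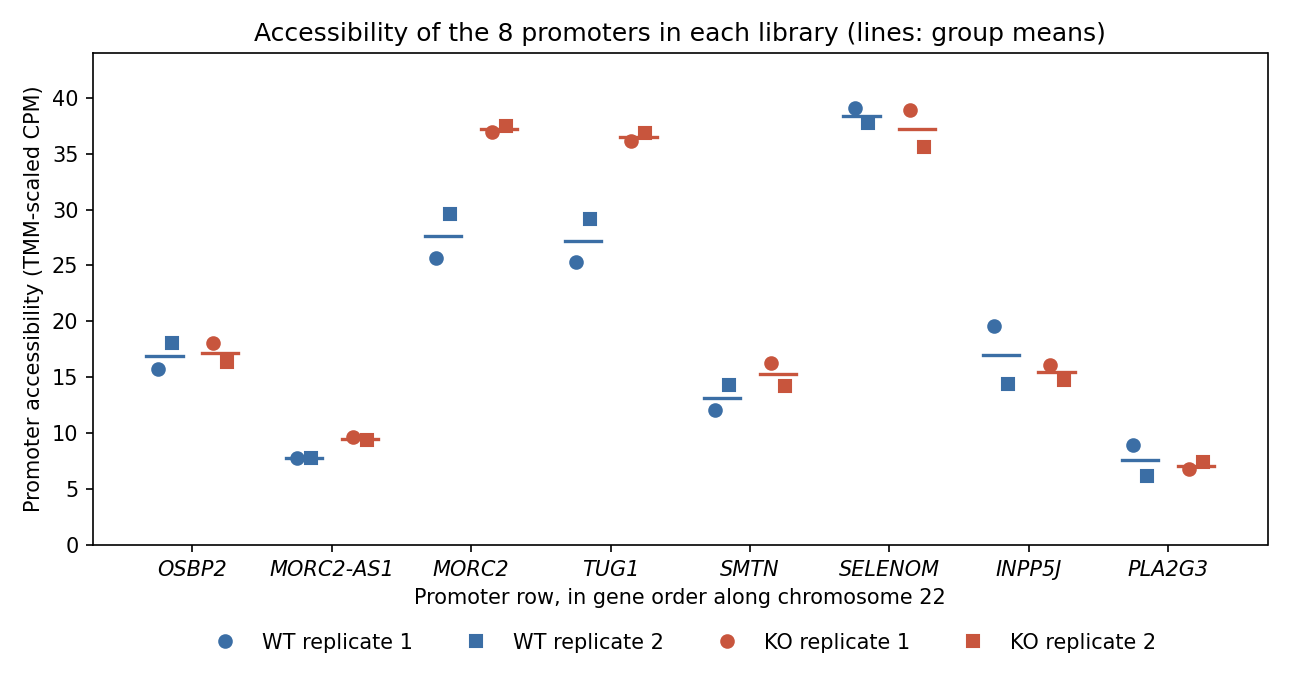
Accessibility of the 8 promoters in TMM-scaled CPM (vertical axis, from 0) in gene order (horizontal axis), with 1 point per library and lines at the means of 2 libraries. The KO points of MORC2 and TUG1 sit between 36.1 and 37.5 CPM, above the WT points at 25.3 to 29.6 CPM, while SELENOM, of like level, has overlapping groups.

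MORC2-AS1 (Gene ID 150291), the transcript on the opposite strand of MORC2, was measured at far fewer fragments. It held 105 in KO 1, 160 in KO 2, 75 in WT 1 and 70 in WT 2, or 9.63 and 9.38 CPM against 7.79 and 7.75 CPM. The groups did not overlap, and KO lay above WT in this way at 25.2% of all tested rows. The SD over 2 libraries was 0.176 CPM in KO and 0.0253 CPM in WT, the latter less than 1 fragment (0.104 CPM in WT 1). So small an SD is no measure of precision at counts this low. The log2 fold change, 0.29 (SE 0.16), was not past an adjusted p of 0.05. The row next to it, LOC107985544, a long noncoding RNA, held 99 and 155 fragments in KO and 67 and 67 in WT. Its counts were within 25% of those of MORC2-AS1 in every library, so that these rows may share fragments too. Its log2 fold change was 0.34 (SE 0.17).

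On the other side of the start pair lies SMTN, which encodes smoothelin, a cytoskeletal protein of contractile smooth muscle. The SMTN promoter (Gene ID 6525) held 178 fragments in KO 1, 242 in KO 2, 116 in WT 1 and 129 in WT 2. In CPM these were 16.3 and 14.2 in KO and 12.1 and 14.3 in WT, so that KO 2 lay just below WT 2 and the groups overlapped. The log2 fold change was 0.20 (SE 0.13). It was 0.076 without WT 1 and 0.13 without KO 1, and 0.32 both without WT 2 and without KO 2. The SMTN difference was thus of the size of the spread between libraries. SMTN has several annotated starts, and which of them the row covers was not determined here.

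The remaining genes on the TUG1 side had log2 fold changes below 0. SELENOM (Gene ID 140606), which encodes a selenocysteine-containing protein of the endoplasmic reticulum, was the most open WT promoter of the set and held 424 and 607 fragments in KO and 376 and 341 in WT. Its levels were 38.9 and 35.6 CPM in KO and 39.0 and 37.8 CPM in WT, and its log2 fold change was −0.056 (SE 0.080). In WT it was more open than MORC2, whereas in KO the levels of both genes lay in the same range.

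INPP5J (Gene ID 27124) encodes an inositol polyphosphate 5-phosphatase that acts on phosphoinositides. It held 176 and 251 fragments in KO and 189 and 130 in WT, or 16.1 and 14.7 CPM against 19.6 and 14.4 CPM. Its WT libraries lay further apart than its KO libraries and enclosed them, and the log2 fold change of −0.16 (SE 0.12) became 0.088 without WT 1. PLA2G3 (Gene ID 50487), a secreted phospholipase A2, was the least open promoter of the set, with 74 and 126 fragments in KO and 86 and 56 in WT. Its WT levels of 8.93 and 6.20 CPM enclosed its KO levels of 6.79 and 7.39 CPM. The log2 fold change was −0.091 (SE 0.18), and 0.20 without WT 1.

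OSBP2 (Gene ID 23762), on the MORC2-AS1 side, encodes an oxysterol-binding protein. It held 197 and 279 fragments in KO and 152 and 163 in WT, and its levels of 18.1 and 16.4 CPM in KO and 15.8 and 18.1 CPM in WT overlapped. The log2 fold change was 0.015 (SE 0.12), with a sign that turned when WT 1 (−0.082) or KO 1 (−0.027) was left out. The microRNA gene MIR3200, whose row lies between OSBP2 and LOC107985544, held 31 and 58 fragments in KO and 38 and 25 in WT. These are too few to show a difference of the size seen at MORC2 (log2 fold change −0.087, SE 0.25).

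In WT the mean levels decreased in the order SELENOM (38.4 CPM), MORC2 (27.6), TUG1 (27.2), INPP5J (17.01), OSBP2 (16.9), SMTN (13.2), MORC2-AS1 (7.77) and PLA2G3 (7.57). Of the neighbours in this order, SELENOM and MORC2 did not overlap, nor did TUG1 and INPP5J, SMTN and MORC2-AS1, or OSBP2 and SMTN. MORC2 and TUG1, INPP5J and OSBP2, and MORC2-AS1 and PLA2G3 did not differ beyond the spread of their libraries. In KO, MORC2 (37.2 CPM), SELENOM (37.2) and TUG1 (36.5) lay together at the top of the order. They were followed by OSBP2 (17.2), INPP5J (15.4), SMTN (15.3), MORC2-AS1 (9.51) and PLA2G3 (7.09).

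Over all promoters 4.45% of 27647 tested rows were past an adjusted p of 0.05 (edgeR, quasi-likelihood), with 3.45% higher and 0.995% lower in KO. The study tested windows and summarised them per promoter, and it reports far fewer differentially accessible genes, so these shares hold for the present fit only. Of the 8 promoters, 2 were past it, MORC2 and TUG1, both higher. Because these rows hold nearly the same counts and were in view when the set was chosen, nothing is read from this count. The KO libraries exceeded both WT libraries at 3 of the 8 promoters (25.2% of all tested rows) and lay below both at 0 (25.4%). For a single promoter taken without the other rows, an exact permutation test of 2 against 2 libraries can give no two-sided p under 0.333, and none was run.

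Along the locus, the promoters with a log2 fold change above 0 that adjoin MORC2 formed a run of 5 rows from LOC107985544 to SMTN. The values along the run were 0.34, 0.29, 0.43, 0.43 and 0.20, and the run was bounded by MIR3200 and SELENOM at −0.087 and −0.056. MIR3200 held few fragments (SE 0.25), so the end on that side is poorly fixed, and OSBP2 beyond it was at 0.015 (SE 0.12). MORC2 and TUG1 are treated as a single measurement and LOC107985544 and MORC2-AS1 may share fragments, so the 5 rows are not all separate. Only MORC2 and TUG1 in the run were past the threshold, and nothing is read from this, since they were chosen by this contrast. Rows are in the order in which the gene table lists the lower coordinate of each gene, and the distance between them varies.

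**Figure D2:**
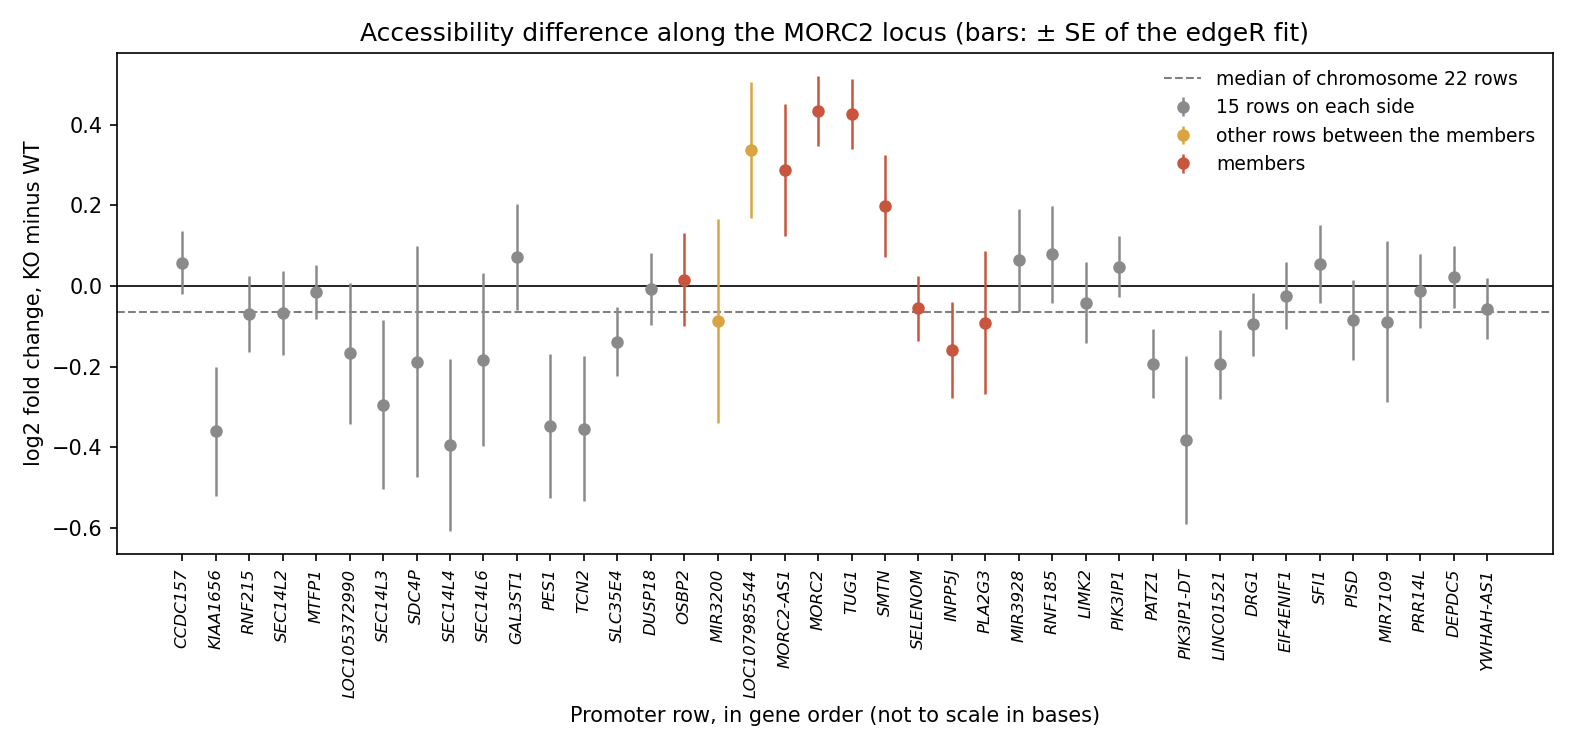
Log2 fold change of accessibility, KO minus WT (vertical axis), for the 8 promoters, the 2 rows between them and the 15 rows on each side, in gene order and not to scale in bases (horizontal axis), with the SE of the edgeR fit as bars. MORC2 and TUG1 stand at 0.43, and the 30 flanking rows lie between −0.39 and 0.078.

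The 15 rows on each side of the 8 promoters were taken as flanks, whatever their values. Their log2 fold changes ranged from −0.39 to 0.078 with a median of −0.077, and 7 of the 30 were above 0. The highest, 0.078 at RNF185, was far under that of MORC2. None of the 30 was past an adjusted p of 0.05 in edgeR, with 4 at an unadjusted p under 0.05, and DESeq2 called 0 with 0 at an unadjusted p under 0.05. Without WT 1 in the fit, 2 of them, PATZ1 and LINC01521, with counts alike, were past the threshold and lower in KO (each −0.31), while 5.89% of all tested rows were past it in that fit and 1.32% were lower. Groups did not overlap at 10 of the 30, with KO above WT at GAL3ST1 alone (25.2% of all tested rows) and below WT at 9 (25.4% of all tested rows). The 15 flanks on the OSBP2 side had a median of −0.17, with KO below WT at 7. Those beyond PLA2G3 had a median of −0.041, with KO below WT at 2. With the next 15 rows further out on each side added, the 60 rows ranged from −0.66 to 0.083 (median −0.092). KO lay below WT at 23 of the 60 and above it at 3. None of the 60 was past the threshold in edgeR, with 8 at an unadjusted p under 0.05. In DESeq2 0 were past the threshold and 0 were at an unadjusted p under 0.05.

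The rows nearest to the set gave little sign of the MORC2 difference. On the OSBP2 side, DUSP18, which encodes a dual-specificity phosphatase, was at 31.0 and 29.5 CPM in KO and 30.0 and 30.6 CPM in WT (log2 fold change −0.0076). SLC35E4 was at 30.6 and 31.0 CPM in KO and 33.5 and 34.3 CPM in WT, the KO libraries lying below the WT libraries (−0.14, SE 0.086). TCN2, the gene of the vitamin B12 carrier transcobalamin, was at 6.05 and 6.45 CPM in KO and 8.62 and 7.42 CPM in WT (−0.35, SE 0.18), and its row differed by no more than 1 fragment from that of PES1 in any library.

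Beyond PLA2G3, MIR3928 and RNF185, an E3 ubiquitin ligase gene, had log2 fold changes of 0.063 (SE 0.13) and 0.078 (SE 0.12) and similar counts. LIMK2, a kinase of the actin cytoskeleton, was at 22.9 and 21.8 CPM in KO and 23.2 and 22.6 CPM in WT (−0.041, SE 0.10). The groups overlapped at all 3 of these rows.

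Over chromosome 22 as a whole the median log2 fold change was −0.065 (619 tested rows), against −0.017 over all tested rows. MORC2 had the highest value of these 619 rows, and the highest outside the 8 promoters was 0.36. Of the chromosome 22 rows, 10 (1.62%) were past the threshold, against 4.45% of all tested rows, with 3 higher and 7 lower in KO. The 3 higher rows were MORC2, TUG1 and PEX26, a peroxisome assembly gene outside the 30 flanking rows on either side. PEX26 held 446 and 660 fragments in KO and 308 and 284 in WT (log2 fold change 0.32, SE 0.083). Over all tested rows, 192 had a log2 fold change above that of MORC2.

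The fold change depended on abundance across the table, so each promoter was set beside rows of like abundance, in 10 classes of equal size. MORC2 and TUG1 fell in class 7 from the bottom, whose median log2 fold change was 0.057, and MORC2-AS1, SMTN and INPP5J in class 5, with a median of −0.032. SELENOM (class 8, median 0.061) and INPP5J lay below their class medians. PLA2G3, at −0.091, lay above that of its class (class 4, −0.18), and OSBP2, at 0.015, near that of its class (class 6, 0.028). With loess offsets that remove this trend, the log2 fold change of MORC2 was 0.38 (SE 0.089), that of TUG1 0.37 and that of MORC2-AS1 0.38 (SE 0.16).

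**Figure D3:**
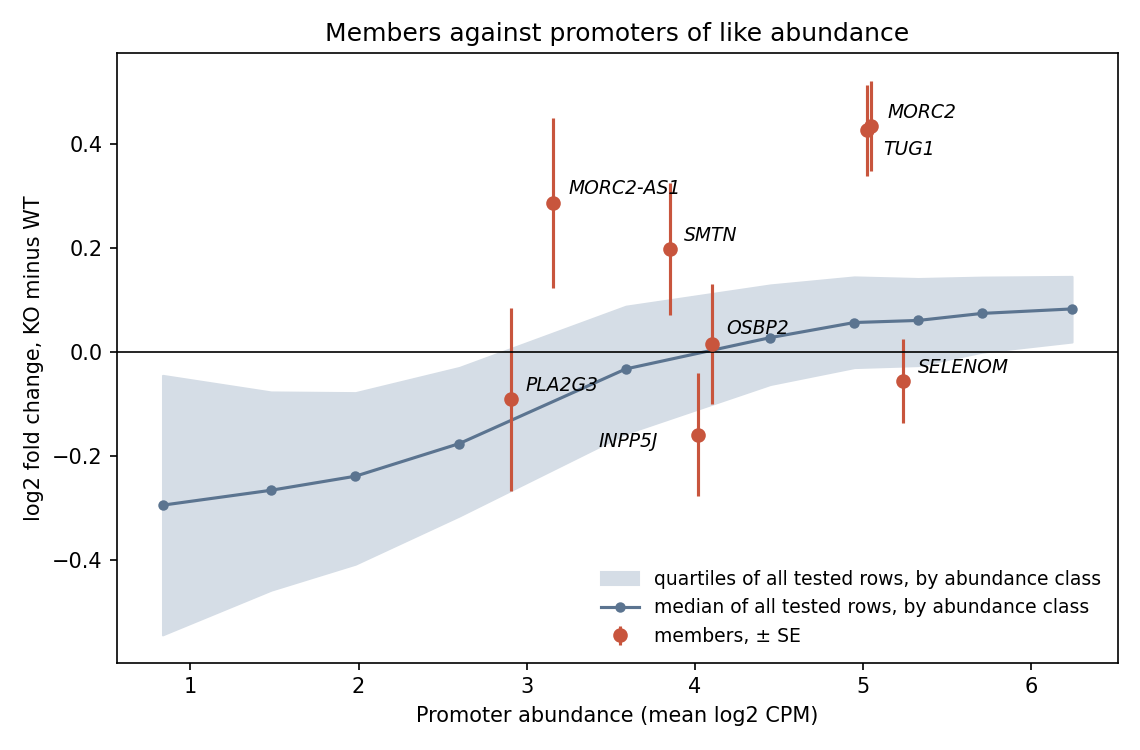
Log2 fold change, KO minus WT (vertical axis), against mean log2 CPM (horizontal axis) for the 8 promoters, with SE bars, over the medians and quartiles of 10 abundance classes of all tested rows. MORC2 and TUG1 at 0.43, MORC2-AS1 at 0.29 and SMTN at 0.20 stand above the upper quartiles of their classes (0.14 in class 7 and 0.088 in class 5), SELENOM and INPP5J lie below the lower quartiles of theirs, and OSBP2 and PLA2G3 lie between the quartiles.

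A measure free of scaling over the whole table was also taken from the same counts, so it is no separate evidence. The flanking rows it divides by had a median log2 fold change of −0.077 in the main fit. All 8 promoters stood higher on this measure than in that fit. Each promoter was expressed per 1000 fragments in the 30 flanking rows of the same library, which held 7436 fragments in KO 1, 11344 in KO 2, 6633 in WT 1 and 6411 in WT 2. Some flanking rows may share fragments, and the intervals below are 95% Wilson intervals that cover counting error only. MORC2 gave 54.2 (49.0 to 59.9) and 56.3 (52.0 to 61.0) in KO, against 37.2 (32.8 to 42.3) and 41.7 (36.9 to 47.1) in WT, and these intervals did not overlap between groups. SELENOM gave 57.0 (51.7 to 62.9) and 53.5 (49.3 to 58.1) in KO, against 56.7 (51.1 to 62.9) and 53.2 (47.7 to 59.3) in WT.

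On the same measure MORC2-AS1 gave 14.1 in both KO libraries (11.7 to 17.1 and 12.1 to 16.5), against 11.3 (9.01 to 14.2) and 10.9 (8.63 to 13.8) in WT. Both KO values of MORC2-AS1 lay above both WT values, and the intervals of the single libraries overlapped between the groups. SMTN gave 23.9 (20.6 to 27.8) and 21.3 (18.8 to 24.2) in KO, against 17.5 (14.6 to 21.0) and 20.1 (16.9 to 24.0) in WT, with overlapping intervals as well. As a log2 ratio of group means the differences were 0.49 for MORC2, 0.48 for TUG1, 0.34 for MORC2-AS1, 0.27 for SMTN, 0.080 for OSBP2, 0.0085 for SELENOM, −0.043 for PLA2G3 and −0.091 for INPP5J.

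Adjacent rows with like counts were also found away from the start pair, and whether such rows share fragments was not tested. Over the 40 rows of the locus and its flanks, 10 adjacent pairs had counts within 25% of each other in every library, and 3 had counts within 10%, MORC2 with TUG1, PES1 with TCN2 and DEPDC5 with YWHAH-AS1. Counts may also be alike in rows that share no fragments. Over all tested rows, 19.2% of adjacent pairs were within 25%, with a median difference of 0.024 between their log2 fold changes. The other pairs differed by a median of 0.20. Between MORC2-AS1 and MORC2 the log2 fold changes differed by 0.15, and between TUG1 and SMTN by 0.23.

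The size of the MORC2 and TUG1 difference held under the fits and scalings tried, and their place past the threshold did not. The log2 fold change of MORC2 was 0.43 without mitochondrial rows and from 0.38 to 0.57 over the other fits and scalings. The upper end came with total count scaling (SE 0.16), under which the median log2 fold change of all rows was 0.12. It was 0.33 without WT 1 and 0.54 without WT 2. MORC2 and TUG1 were not past the threshold under total count scaling, in DESeq2, or without KO 2, where the MORC2 log2 fold change was still 0.43 (SE 0.12). Under these settings 0.0723%, 0.0253% and 0.148% of all rows were past it. Total count scaling raised the values of the table as a whole, and under it SELENOM (0.083) and PLA2G3 (0.051) were above 0 but below the median of all rows, while OSBP2 (0.15) lay just above that median.

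**Figure D4:**
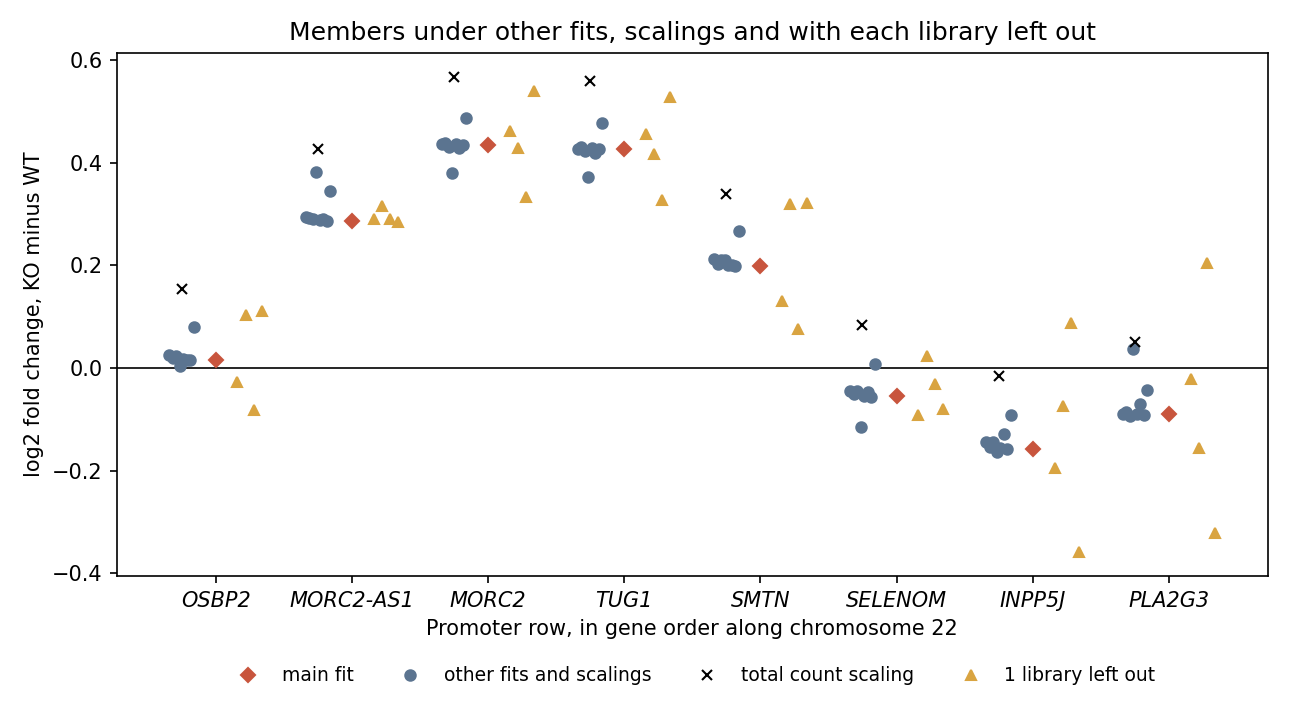
Log2 fold change, KO minus WT (vertical axis), of each of the 8 promoters (horizontal axis) in the main edgeR fit, in other fits and scalings, and with each library left out. MORC2 and TUG1 stay between 0.33 and 0.57, while OSBP2, SELENOM, INPP5J and PLA2G3 cross 0.

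The rows most like MORC2 in level and pattern, by Euclidean distance in log2 CPM over the 4 libraries, were TUG1 (distance 0.049), with nearly the same counts, then NUDT12 (0.082), PAG1 (0.12), TES (0.15) and NDST3 (0.16). The last 4 lie on other chromosomes and had log2 fold changes of 0.35 to 0.39. With 4 libraries this likeness is a description only.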

How the data were processed

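ATAC-seq was performed on 2 WT and 2 MORC2 KO libraries of HEK293T cells. Per the study's methods, adapters were removed by Trim Galore, alignment to the telomere-to-telomere assembly CHM13 was by bowtie2, properly paired primary alignments of high mapping quality were kept and Picard removed duplicates. The values the authors deposited are fragment counts for each promoter and library, not normalised. The methods state that fragments were counted by their midpoint in windows along the genome, from which results per promoter were summarised. Whether the promoter counts were made by the same rule is not given in the sources used here. The deposited WT peak list was not used here, because gene positions on CHM13 were not at hand.

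Symbols and gene order came from RefSeq genes on GRCh38.p14 (28763 of 28775 IDs matched), and no coordinates were carried to CHM13. Rows were filtered with filterByExpr (27647 kept, 1128 removed), scaled by TMM and compared over all 4 libraries in edgeR 4.0.16 under R 4.3.3, using quasi-likelihood F-tests with the legacy fit and no covariates. P-values were adjusted by Benjamini-Hochberg over all tested rows, with a threshold of 0.05. SE were derived from the F statistic. The fit was tested on simulated data. The common dispersion was 0.0018, a variation of 4.24% between libraries beyond counting error, and 1 fragment equals 0.0586 to 0.111 CPM.

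The 8 promoters and the lists were chosen with earlier results of these data known. Named are these promoters, the next 3 rows on each side, flanking rows past the threshold and the 5 rows most like MORC2. LOC107985544, MIR3200, GAL3ST1, PES1, DEPDC5, YWHAH-AS1 and PEX26 fall outside this rule and were named after their values were seen. Alternatives were size factors of DESeq2 in the edgeR fit, total count scaling, loess offsets (span 0.3), no filter, a replicate block, the edgeR 4 fit, DESeq2 1.42.0 without independent filtering, omission of mitochondrial rows, near-identical neighbours counted once, a threshold of 0.1, wider flanks and leaving out each library. The measure per 1000 flanking fragments was added after seeing the data. One of the listed marker genes of other cell types is not reported here.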

Additional observations from a re-analysis of the deposited data

How the results depend on the processing

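Of the 8 promoters, 2 were past the threshold in the main edgeR fit (4.45% of all tested rows). The same 2 were past it with size factors from DESeq2 (4.63% of rows), loess offsets (1.45%) and no filter (4.38%). So they were in the edgeR 4 fit (3.01%), without mitochondrial rows (4.5%) and at an adjusted p under 0.1 (share not given). MORC2 and TUG1 were chosen by this contrast and hold nearly the same counts, so nothing is read from these counts. There were 0 in DESeq2 and with total count scaling, where 0.0253% and 0.0723% of all tested rows were past it. At an unadjusted p under 0.05 there were 2 and 3 of the 8, and no share over all rows is given for these. When near-identical neighbours were counted once, 1 of the 6 promoters then tested was past the threshold, against 4.57% of all rows then tested. The second row of each such pair was left out there, which removed TUG1 and MORC2-AS1. Leaving out each library gave 0 to 2, the 0 without KO replicate 2. The cause was not tested.

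With the replicate number as a block, 2 were past the threshold, MORC2 had a log2 fold change of 0.43 (SE 0.092) and 0 flanking rows were called (5 at an unadjusted p under 0.05). Deviations of same-numbered libraries did not correlate (r = −0.0003 over promoters), which gives no sign that equal numbers pair the libraries, and the block changed no call here.

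Of the 30 flanking rows 0 were called in each fit (edgeR and its alternatives gave 0 to 5 at an unadjusted p under 0.05), other than without WT replicate 1. The range with each library left out was 0 to 2, and the 2, both lower in KO, were PATZ1 (−0.31) and LINC01521 (−0.31), whose counts differed by under 25%. Over all tested rows the share called was 4.45% in the main fit, 0.0253% in DESeq2 and 0.0723% with total count scaling. At such shares 0 of 30 draws no boundary. The median of the flanks, −0.077, was 0.061 with total count scaling, which lifts the median of all rows to 0.12. It ranged from −0.073 to −0.036 with libraries left out in turn, the latter without KO replicate 1. The pairs of near-identical rows numbered 10 within 25% and 3 within 10%.

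Values near 0 changed sign. With each library left out, OSBP2 ranged from −0.082 (without WT replicate 1) to 0.11, SELENOM from −0.091 to 0.023 (without KO replicate 2), and, both positive without WT replicate 1 only, INPP5J from −0.36 to 0.088 and PLA2G3 from −0.32 to 0.20. OSBP2 was also −0.027 without KO replicate 1. SELENOM was 0.083 with total count scaling and 0.0085 per flanking fragments. PLA2G3 was 0.037 with loess offsets and 0.051 with total count scaling. Of the 104 comparisons of single promoters, 89 kept direction and, where there was a threshold, their side of it, 6 kept direction only and 9 changed sign. The measure per flanking fragments has no threshold, so only its direction was compared. Counts were low at MIR3200 (25 to 58 fragments) and PLA2G3 (56 to 126).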
